A study of Mus musculus with 16 samples.

Results

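Translation initiation and elongation factors are the soluble proteins that bring mRNA, initiator tRNA and ribosomal subunits together and then move the ribosome along the message. They were read here from ribosome-bound and total RNA of mouse retina. The genes were taken by name, as every symbol of the deposited tables that begins with Eif followed by a digit from 1 to 6, or with Eef followed by 1 or 2, and symbols marked as pseudogenes were left out. This gave 66 genes of 47451 symbols, with 359 of 117860 transcripts. Each gene was represented by its transcript with the highest mean count. The transcripts used for Eif4a1 and Eif2s3y are annotated as retained introns, and that for Eif2d as nonsense-mediated decay. Transcripts of a gene were not summed, and for some genes they differed in their changes. After the filter on low counts, 64 of the 66 genes were tested in the tagging experiment and 63 in the Brn3b experiment. Eif2c5 had a count of 0 in all 16 libraries and Eif4e1b, an oocyte relative of eIF4E, did not pass the filter in either experiment, and Eif4ebp1 was not tested in the Brn3b experiment.

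In eukaryotes eIF2, bound to GTP, brings the initiator tRNA to the small ribosomal subunit, eIF3 forms a scaffold on that subunit, and eIF1 and eIF1A guard the choice of the start codon. The cap of the mRNA is bound by eIF4E, which joins the scaffold eIF4G and the helicase eIF4A. eIF5B then joins the large subunit, after which eEF1A delivers aminoacyl-tRNAs, eEF2 moves the ribosome by a codon and eIF5A helps it past difficult stretches. Phosphorylation of the alpha subunit of eIF2 by its kinases and sequestration of eIF4E by its binding proteins are the best known brakes on this machinery. In neurons a switch between the eEF1A copies, from Eef1a1 during development to Eef1a2 in mature cells, is a classic example of a tissue-specific translation factor.

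Ribosomes were purified by translating ribosome affinity purification (TRAP), in which an HA-tagged ribosomal protein, RPL22, is made only in cells with Cre and is recovered with its mRNA by an HA antibody (IP). Cre was driven by Opn4, the gene of melanopsin, which marks intrinsically photosensitive retinal ganglion cells (ipRGCs), and the study's methods name cones as a further group of HA-labelled cells. In the tagging experiment, retinas of Opn4-Cre; Rpl22-HA mice gave 2 IP and 2 input libraries, and retinas of Opn4-Cre mice without the tag gave 2 IP and 2 input libraries. The input was 1.5% of the lysate, the retinas of each animal were combined, and these libraries are labelled as pooled male and female. In the Brn3b experiment, IP libraries came from 4 Brn3bcKO mice (Opn4-Cre; Rpl22-HA; Brn3bcKO-AP), in which the Brn3b gene is targeted for removal in cells with Cre, and from 4 control mice (Opn4-Cre; Rpl22-HA), with no input. All mice were at postnatal day 60 on a mixed B6/129 background, and Opn4-Cre was shared by every group.

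Many mRNAs of the translation machinery begin with a C followed by a run of pyrimidines, the 5′ terminal oligopyrimidine tract through which mTORC1 and LARP1 control their translation in mammals. The windows below run from 10 bases before a RefSeq transcription start through 20 bases from it on (GRCm38.p6, transcribed strand) and are shown for members on which the results turn: the 2 eEF1A copies, the 2 genes that were lower in the Rpl22-HA IPs than in their inputs, and the X- and Y-linked copies of an eIF2 subunit. Capitals mark a C followed by at least 4 bases that are each C or T, beginning within 5 bases of the start.
Eef1a1, chr9:78481705-78481734, minus strand: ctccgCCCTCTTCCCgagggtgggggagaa
Eef1a2, chr2:181156996-181157025, minus strand: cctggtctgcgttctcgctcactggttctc
Eef2, chr10:81176621-81176650, plus strand: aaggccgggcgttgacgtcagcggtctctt
Eif3f, chr7:108934405-108934434, plus strand: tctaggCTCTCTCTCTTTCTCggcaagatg
Eif2s3x, chrX:94212632-94212661, minus strand: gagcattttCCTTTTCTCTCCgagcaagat
Eif2s3y, chrY:1010585-1010614, plus strand: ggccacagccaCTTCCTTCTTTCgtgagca
The run was 10 bases long at Eef1a1, 15 at Eif3f and 12 at both Eif2s3x and Eif2s3y, and neither Eef1a2 nor Eef2 had one that began within 5 bases of the start. The RefSeq start of Eif2s3x lay 58 bases from the 5′ end of the transcript counted here. Of 51 members with a RefSeq start, 15 (29.4%) held such a run, against 6027 of 32851 starts of all genes (18.3%). Each member gave 1 start, the nearest to its counted transcript, whereas all starts of the other genes were taken. Of the 51 starts, 38 lay within 50 bases of the transcript. The 15 include Eif2c5, a long noncoding RNA without counts, and Eif2ak4, whose start lay 23234 bases away. The pattern was searched on the transcribed strand alone, and no other motif was searched.

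The genes described most lie across the genome (mm10, GENCODE M21, bounds of the counted transcript). Eef1a1 is at chr9:78478449-78481724 and Eef1a2 at chr2:181147653-181157014, both on the minus strand, and Eef2 is at chr10:81176631-81182498 on the plus strand. Eif5a lies at chr11:69916720-69921386 on the minus strand and Eif5a2 at chr3:28781276-28798846 on the plus strand. Eif4a2 is at chr16:23107444-23113947, Eif3f at chr7:108934417-108942951, Eif5b at chr1:37998010-38055579 and Eif2ak1 at chr5:143817788-143904251, all on the plus strand, and Eif3i is at chr4:129591960-129600648 on the minus strand. Counts were given per transcript, not per exon.

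Total counts ran from 2332612 to 14512132 in the tagging experiment, where replicate 1 of the untagged inputs was the lowest, and from 12994498 to 20350881 in the Brn3b experiment. Values below are normalized counts scaled to library size by TMM (CPM), and fold changes, standard errors (SE) and p-values come from the quasi-likelihood test of edgeR with Benjamini-Hochberg adjustment over all transcripts tested, called at an adjusted p under 0.05. The study's methods call the libraries of a group biological replicates, and p-values measure the spread between them. The label ipRGC was checked against 4 marker genes, of which all were detected, and their summed level was 124 to 127 CPM in the Rpl22-HA IPs, against 4.88 to 5.73 CPM in the Rpl22-HA inputs. The summed level of 5 cone markers was 6509 to 8003 CPM in the same IPs, against 842 to 847 CPM in the inputs, so the libraries called ipRGC also held cone RNA. Rod RNA was depleted but present, with 5 rod markers at 9463 to 11093 CPM in these IPs, against 38781 to 43133 CPM in the inputs, and at 8994 to 10038 CPM in the untagged IPs. In bulk samples fewer cells of a type and less RNA per cell cannot be told apart, and the share of these cell types in the IP values of the translation factors was not tested. Pou4f2, the gene of BRN3B, had 18.8, 24.9, 33.8 and 34.0 CPM in the Brn3bcKO IPs, against 36.8, 44.7, 53.6 and 64.2 CPM in the control IPs, with no overlap, so its RNA was lower but not gone.

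Per length of transcript, the most abundant member of the Rpl22-HA IPs was Eef1a1, with a mean of 249.6 CPM per kilobase of transcript. Eif1, which scans for the start codon, had 206 CPM per kilobase there, Eif4a2, a helicase of the cap complex, had 178 CPM per kilobase, Eif5a had 166 CPM per kilobase and Eef2 had 125 CPM per kilobase. In the Rpl22-HA inputs, Eef1a1 (279 CPM per kilobase), Eef2 (232 CPM per kilobase) and Eif1 (203 CPM per kilobase) stood first, and Eif4a2 had 75.2 CPM per kilobase. Eef1a2 was below Eef1a1 in every group, with means per kilobase of 51.3 against 249.6 CPM in the Rpl22-HA IPs and 28.4 against 279 CPM in their inputs. With the tag, the members together reached 4878 and 4722 CPM after IP, against 4462 and 4551 CPM in input. Without it they reached 3173 and 3380 CPM after IP, against 3793 and 4458 CPM in input. The untagged IPs held the lowest sums of the 8 libraries.

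The first question was which translation factors were enriched on tagged ribosomes over the RNA of the whole retina. In the Rpl22-HA IPs over the Rpl22-HA inputs, 20 of 64 members were higher (23.0% of all transcripts were) and 2 were lower (11.5% of all transcripts were). The median log2 fold change was 0.28 over the members and 0.18 over all transcripts, so the members as a group lay close to the rest of the transcriptome. When an absolute log2 fold change over 1 was asked for as well, 4 members were higher (13.7% of all transcripts) and 0 lower (7.23%). The balance of directions depended on the scaling, since the selection of transcripts that the study's methods name gave 6 members higher and 15 lower, with the median of 50 members at -0.05, and the exact test of edgeR gave 16 higher and 9 lower. The same selection with the scaling of all transcripts gave 20 higher and 2 lower. The 20 higher members were spread over the machinery, with 4 of 13 factors of start codon choice and the ternary complex, 2 of 5 subunits of eIF2B, 1 of 4 eIF2 kinases, 4 of 14 eIF3 subunits, 4 of 11 tested cap complex factors, 1 of 4 eIF4E binders, 1 of 3 of the eIF5A and eIF6 group, 2 of 6 eEF1 genes and 1 of 2 factor methyltransferases.

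The largest of these changes among well-counted members was that of Eif5a2, the less abundant copy of eIF5A. It had 27.2 and 19.1 CPM in the Rpl22-HA IPs, against 7.52 and 4.53 CPM in the Rpl22-HA inputs, a log2 fold change of 1.94 ± 0.27 (SE, adjusted p = 2.47e-05). Both IP libraries were above both inputs. Its main copy, Eif5a, had 239 and 239 CPM in the IPs, against 213 and 208 CPM in the inputs, and was not called (log2 fold change 0.18 ± 0.15, adjusted p = 0.374).

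Eif4a2, the helicase copy that is prominent in brain, had 390 and 399 CPM in the Rpl22-HA IPs, against 155 and 177 CPM in the Rpl22-HA inputs. The IPs were 2.37-fold higher, with a log2 fold change of 1.25 ± 0.17 (SE, adjusted p = 1.79e-05), and all 24 of its transcripts tested were called higher. These transcripts were counted in the same libraries, so their calls are not independent. Eif4a1, the copy common in dividing cells, had 70.6 and 63.1 CPM in the IPs, against 43.4 and 42.8 CPM in the inputs (0.63 ± 0.16, adjusted p = 0.00559). The transcripts of Eif4a1 did not move together, with log2 fold changes from -0.23 to 0.85 and 4 of 7 called, and its representative is annotated as a retained intron. The remaining helicase relative, Eif4a3, which belongs to the exon junction complex, had 62.05 and 58.4 CPM in the IPs, against 66.1 and 71.1 CPM in the inputs, and was not called.

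Among the eIF3 subunits, Eif3i had 77.1 and 76.3 CPM in the Rpl22-HA IPs, against 35.6 and 43.6 CPM in the Rpl22-HA inputs (log2 fold change 0.95 ± 0.21, adjusted p = 0.00180). Eif3b rose by 0.74 ± 0.16, Eif3m by 0.62 ± 0.16 and Eif3k by 0.54 ± 0.16. Eif3f went the other way, with 179 and 158 CPM in the IPs, against 233 and 247 CPM in the inputs (-0.51 ± 0.15, adjusted p = 0.0135). Subunits of the same complex therefore moved in both directions, and 9 of the 14 were not called.

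On the elongation side, Eef1a2 had 97.1 and 117 CPM in the Rpl22-HA IPs, against 56.6 and 61.7 CPM in the Rpl22-HA inputs (log2 fold change 0.85 ± 0.26, adjusted p = 0.0175). Eef1a1 had 442 and 454 CPM in the IPs, against 472 and 529 CPM in the inputs, and was not called (-0.16 ± 0.18, adjusted p = 0.514). The mature neuronal copy was thus higher in the IPs, whereas the general copy was not called. The call for Eef1a2 was lost in 6 of 16 alternative analyses, where the highest adjusted p was 0.292.

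Eef2, the translocase, was the clearest of the lower members. It had 390 and 382 CPM in the Rpl22-HA IPs, against 730 and 706 CPM in the Rpl22-HA inputs, 1.86-fold lower (log2 fold change -0.89 ± 0.15, adjusted p = 0.000194), with no overlap. Its kinase, Eef2k, which slows elongation by phosphorylating it, was counted at 2.57 and 1.97 CPM in the IPs, against 2.03 and 1.39 CPM in the inputs, and was not called. Eef1b2, the exchange factor of eEF1A, rose by 0.73 ± 0.15 (adjusted p = 0.00136).

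Of the eIF2 kinases, Eif2ak1, the kinase known as HRI that responds to heme and mitochondrial stress, was called, with 24.5 and 26.0 CPM in the Rpl22-HA IPs, against 14.9 and 13.6 CPM in the Rpl22-HA inputs (log2 fold change 0.83 ± 0.20, adjusted p = 0.00334). Eif2ak4 (GCN2, the sensor of uncharged tRNA) had 5.31 and 5.59 CPM in the IPs, against 3.58 and 3.83 CPM in the inputs, Eif2ak3 (PERK, in the endoplasmic reticulum) had 4.63 and 5.28 CPM, against 3.22 and 4.88 CPM, and Eif2ak2 (PKR, the sensor of double-stranded RNA) had at most 1.07 CPM in these libraries. None of these 3 was called. The target of the kinases, Eif2s1 (eIF2 alpha), rose by 0.51 ± 0.18 (adjusted p = 0.0373), and in its exchange factor eIF2B the subunits Eif2b2 (0.71 ± 0.18) and Eif2b3 (0.54 ± 0.18) rose, while Eif2b1, Eif2b4 and Eif2b5 were not called. The calls for Eif2s1 and Eif2b3 were each lost in 10 of 16 alternative analyses, with adjusted p up to 0.579 for Eif2s1 and 0.469 for Eif2b3.

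The proteins of Eif4ebp1, Eif4ebp2 and Eif4ebp3 block cap-dependent initiation when mTORC1 is off. Among these and Eif4enif1, the 4 eIF4E binders, only the sparsely counted Eif4ebp3 was called over the inputs. It had 1.29 and 2.36 CPM in the Rpl22-HA IPs, against 0.477 and 0.581 CPM in the Rpl22-HA inputs (log2 fold change 1.77 ± 0.55, adjusted p = 0.0191). Eif4ebp1 had 0.771 and 0.867 CPM in the IPs, against 1.31 and 1.51 CPM in the inputs, and Eif4ebp2 had 1.37 and 1.65 CPM, against 1.31 and 0.349 CPM, so both were near the limit of what these counts can show. Eif4e itself had 62.05 and 58.5 CPM in the IPs, against 43.2 and 43.7 CPM in the inputs, and rose by 0.47 ± 0.16 (adjusted p = 0.0284), a call lost in 10 of 16 alternative analyses (adjusted p up to 0.645).

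The number of members called over the inputs rested on few libraries. Without Rpl22-HA IP replicate 1, 5 members were higher, without IP replicate 2, 6 were, without input replicate 1, 6 were, and without input replicate 2, 9 were. Eif3f was not called lower without either input. Eif4a2 and Eif5a2 (higher) and Eef2 (lower) were called in each of these 4 fits, and DESeq2 called 10 higher and 2 lower.

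**Figure D1:**
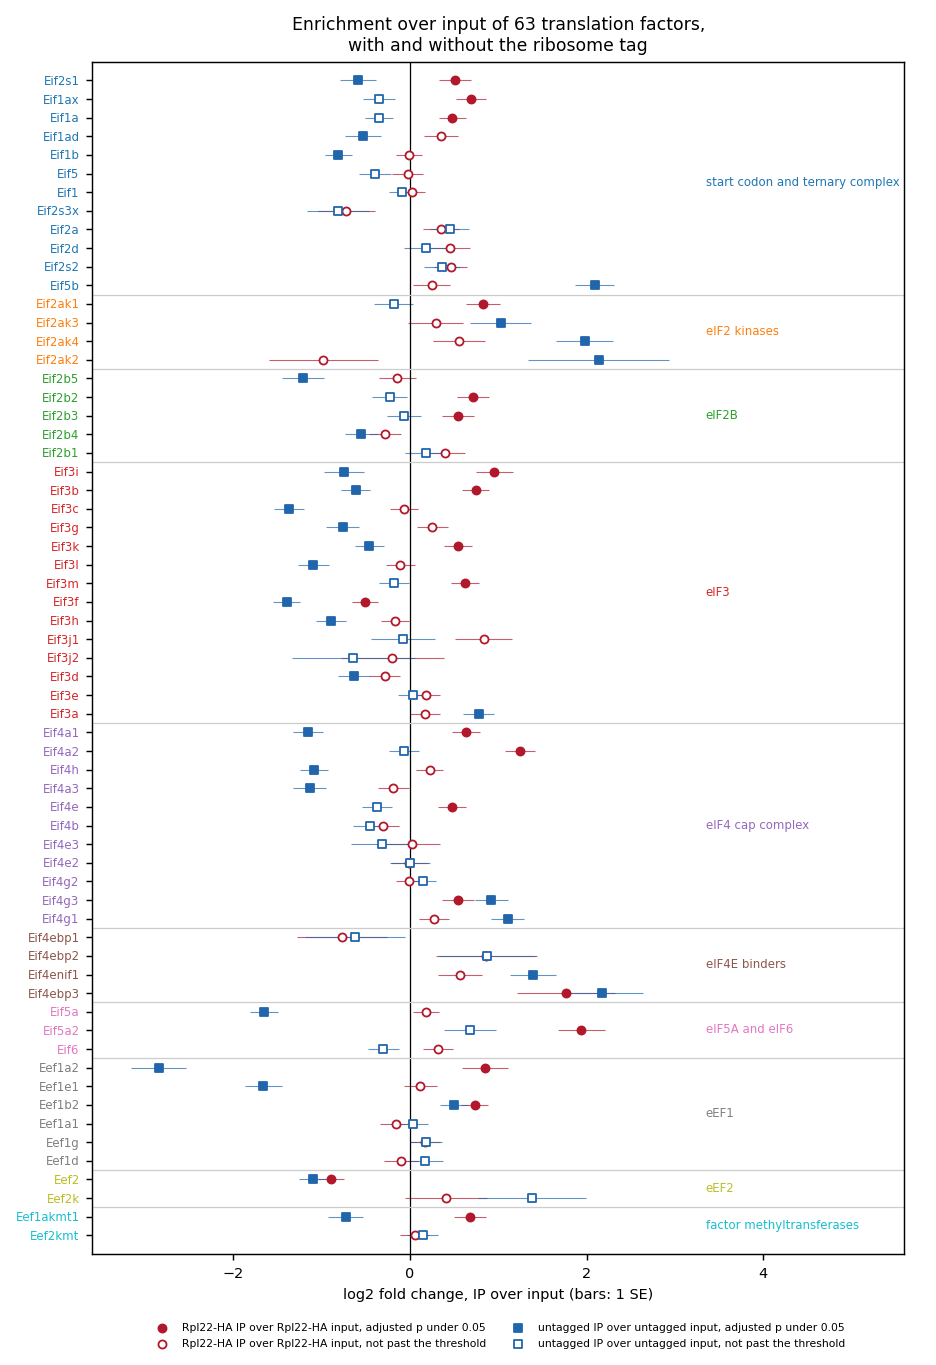
Log2 fold change of IP over input (x axis, bars 1 SE) for 63 members grouped by role (y axis), in Rpl22-HA retinas and in untagged retinas; filled symbols passed an adjusted p of 0.05. Eif2s3y is left out because its untagged libraries were at or near 0. Most eIF3 subunits lie left of 0 without the tag, whereas the long Eif5b, Eif4g1 and Eif2ak4 lie right of it.

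The second question was what the tag brought down beyond the RNA that the beads recovered without it. In the Rpl22-HA IPs over the untagged IPs, 34 of 64 members were higher, where 29.3% of all transcripts were, and 7 were lower, where 30.9% of all transcripts were. The median log2 fold change was 0.56 over the members and -0.06 over all transcripts. Past an absolute log2 fold change of 1, 20 members were higher (21.5% of all transcripts) and 3 lower (23.0%). Genotype and sex cannot be told apart in this comparison, since the untagged libraries nearly lacked RNA of Y-linked genes despite their label of pooled sexes. The member on the Y chromosome showed it directly. Eif2s3y, the male copy of eIF2 gamma, had 9.26 and 11.8 CPM in the Rpl22-HA IPs, against 0.0956 and 0 CPM in the untagged IPs, and 258 counts against 1 gave a ratio of 262 (95% interval 46.6 to 10377, counting error only). In the inputs it had 3.94 and 5.46 CPM with the tag, against 0 and 0 CPM without it, at least 16.1-fold higher when 80 counts were set against a floor of 3 counts over the group. Its X-linked partner Eif2s3x, which females carry on both X chromosomes, had 3.34 and 3.70 CPM in the Rpl22-HA IPs, against 3.34 and 3.10 CPM in the untagged IPs, and was not called.

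Eef1a2 showed the largest of the other differences. It had 97.1 and 117 CPM in the Rpl22-HA IPs, against 4.78 and 8.25 CPM in the untagged IPs, 16.1-fold higher (log2 fold change 4.01 ± 0.31, adjusted p = 9.49e-09). Tagged IPs of the Brn3b experiment, normalized separately, ranged from 7.40 to 118 CPM in the controls and from 9.98 to 83.7 CPM in the Brn3bcKO group. A tagged IP was thus not always above the untagged level. In the tagging experiment both tagged libraries lay far above both untagged ones. Eef1a1 instead had 442 and 454 CPM in the Rpl22-HA IPs, against 419 and 474 CPM in the untagged IPs (0.00 ± 0.18). Eif5a had 239 and 239 CPM, against 60.7 and 60.5 CPM in the untagged IPs (1.98 ± 0.16, adjusted p = 1.34e-08). All of its 13 transcripts were called higher, in the same libraries and so not independently. Eef1e1, which is also a component of the multisynthetase complex, had 36.4 and 30.8 CPM, against 8.41 and 10.4 CPM (1.83 ± 0.20, adjusted p = 5.49e-07).

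In the eIF3 complex, 11 of 14 subunits were higher (29.3% of all transcripts were) and 1 was lower (30.9% of all transcripts were). Their median log2 fold change was 0.95, whereas over their own inputs 4 of the 14 were higher, with a median of 0.17. In the eIF5A and eIF6 group 3 of 3 were higher, with a median of 1.02. Eif3i had 77.1 and 76.3 CPM in the Rpl22-HA IPs, against 19.5 and 22.9 CPM in the untagged IPs (1.85 ± 0.21, adjusted p = 1.16e-06). Eif3b had 95.6 and 79.1 CPM, against 28.3 and 27.5 CPM (1.65 ± 0.16), and Eif3f, the subunit that was lower than its input, had 179 and 158 CPM, against 86.9 and 88.0 CPM (0.95 ± 0.15). The exceptions were Eif3a, the largest subunit, which was lower (-0.58 ± 0.16, adjusted p = 0.00531), and Eif3e and Eif3j2, which were not called. In eIF2B, 3 of 5 subunits were higher and none was lower, namely Eif2b2, Eif2b3 and Eif2b5.

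The 7 members that were lower with the tag came from several roles. Eif5b, the subunit-joining GTPase, had 45.2 and 57.7 CPM in the Rpl22-HA IPs, against 156 and 232 CPM in the untagged IPs (log2 fold change -1.91 ± 0.21, adjusted p = 5.38e-07). Eif2ak4 had 5.31 and 5.59 CPM, against 14.05 and 10.1 CPM (-1.14 ± 0.26, adjusted p = 0.00108). Eif4enif1, which carries eIF4E to the nucleus and to processing bodies, had 15.3 and 17.5 CPM, against 22.8 and 40.9 CPM (-0.96 ± 0.23, adjusted p = 0.00146), and Eif4g1, the main cap scaffold, had 33.0 and 29.9 CPM, against 49.2 and 45.5 CPM (-0.59 ± 0.17, adjusted p = 0.00532). The others were Eif3a, Eif4ebp3 and Eif4g3. For each of these 7, the untagged IPs were also above their own inputs.

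**Figure D2:**
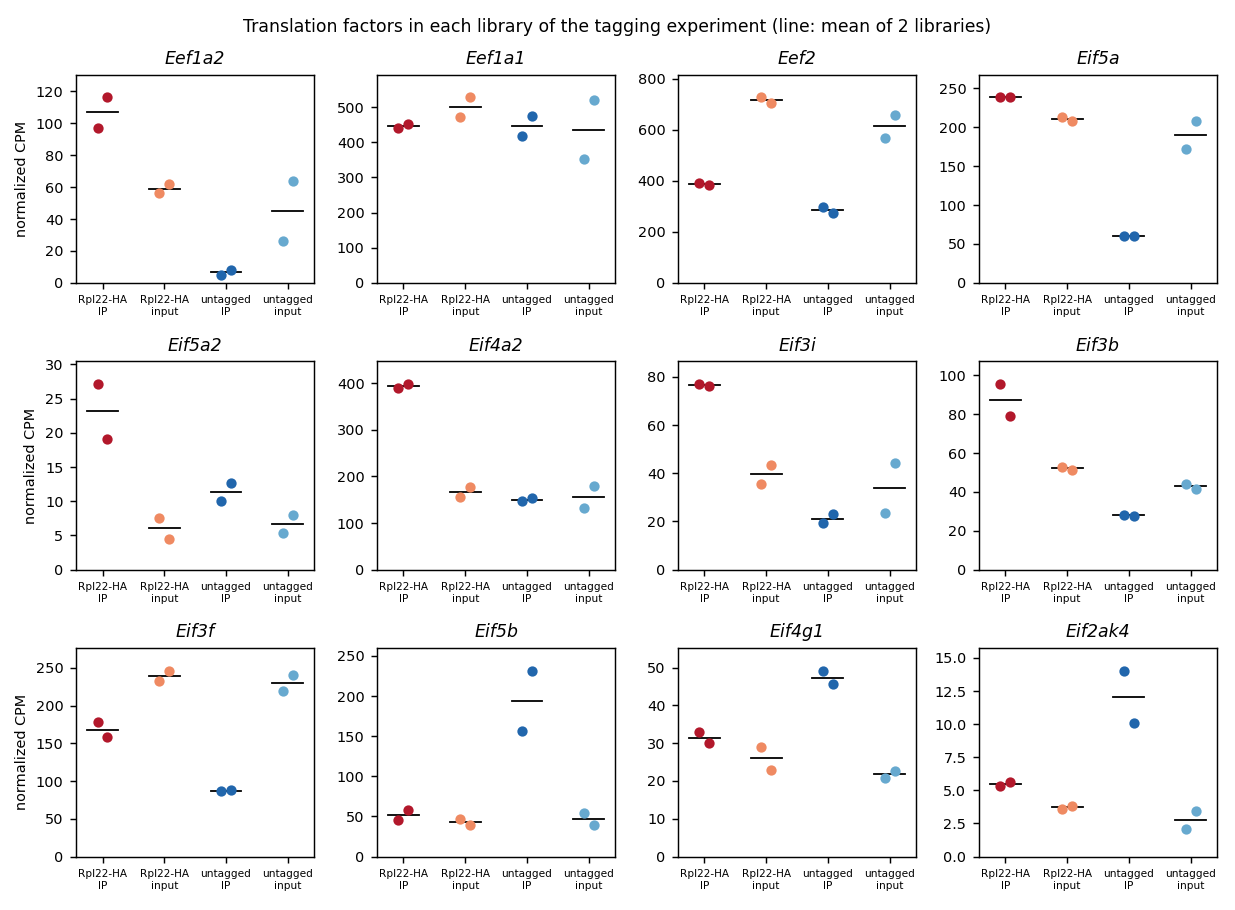
Normalized CPM (y axis, from 0) of 12 members in each library of the tagging experiment (x axis, 2 libraries a group, line at their mean). Eef1a2 falls to 4.78 and 8.25 CPM in the untagged IPs, Eef2 has 390 and 382 CPM after IP with the tag, against 730 and 706 CPM in input, and Eif5b is highest in the untagged IPs.

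The untagged IPs give that background directly. In the untagged IPs over the untagged inputs, 10 of 64 members were higher (27.5% of all transcripts were) and 22 were lower (23.7% of all transcripts were), with a median of -0.27 over the members and 0.05 over all transcripts. Past an absolute log2 fold change of 1, 11 members were lower (16.5% of all transcripts). Of 14 eIF3 subunits 9 were lower and 1, Eif3a, was higher. Eif5a had 60.7 and 60.5 CPM in the untagged IPs, against 172 and 208 CPM in the untagged inputs (-1.65 ± 0.16, adjusted p = 1.88e-07), and Eif5b had 156 and 232 CPM, against 54.0 and 39.1 CPM (2.09 ± 0.22, adjusted p = 5.47e-07). The eIF2 kinases Eif2ak2, Eif2ak3 and Eif2ak4 were higher. Without replicate 2 of the untagged inputs 14 members were lower, and without the shallow replicate 1 of these inputs 7 members were higher and 25 lower.

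The recovery without the tag moved with transcript length. Of the 11 members whose transcript had at least 5000 bases, 5 were higher in the untagged IPs than in their inputs and 0 lower (median log2 fold change 0.87), whereas of the 10 members under 1500 bases 1 was higher and 7 were lower (median -0.74). Across the 64 members, the correlation of this fold change with log2 length was r = 0.37 (Spearman's rho 0.38), and over 14060 symbols it was 0.27 (rho 0.31). In the Rpl22-HA IPs over their inputs the same correlation was -0.02 over the members (rho 0.07). With the percent of G and C bases (GC), the fold change without the tag correlated at r = -0.29 over the members and -0.25 over 14060 symbols. These are correlations across genes of the same libraries, which are not independent replicates. Over the untagged IPs, 3 of the 11 long members were higher with the tag and 5 were lower (median -0.48), against 8 higher and 1 lower of the 10 short ones (median 1.04). What part length or GC had in the differences between tagged and untagged IPs was not tested.

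**Figure D3:**
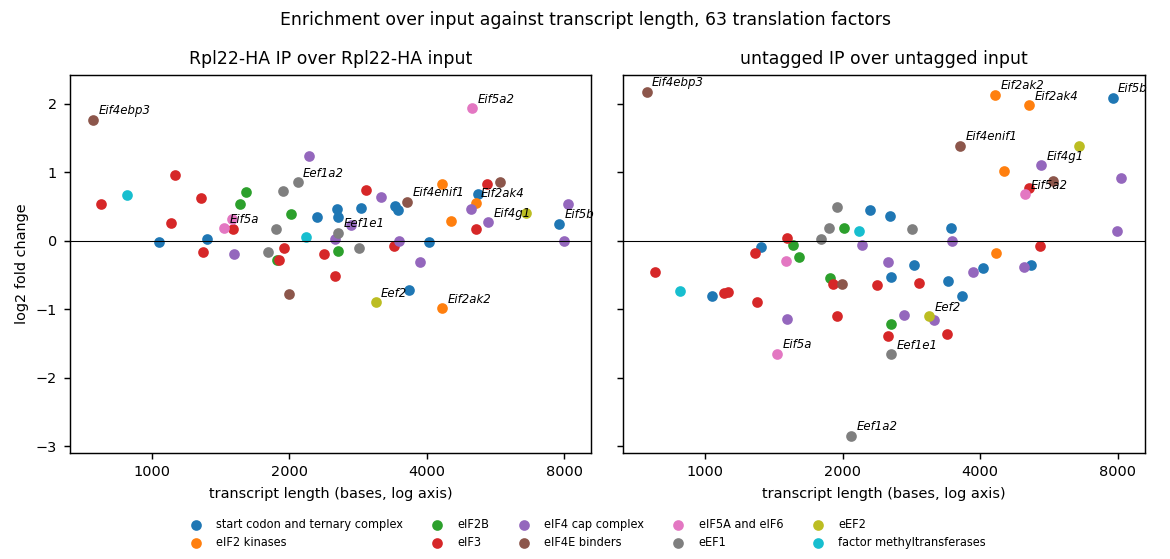
Log2 fold change over input (y axis) against transcript length in bases (x axis, log scale) for 63 members coloured by role, in Rpl22-HA retinas (left) and untagged retinas (right), without Eif2s3y. Long transcripts such as Eif5b, Eif2ak4 and Eif4g1 lie above 0 on the right, where the correlation with log2 length over 64 members was 0.37, and it was -0.02 on the left.

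The difference of the enrichments, tagged minus untagged, was tested in the same fit. It was above 0 for 27 of 64 members (20.6% of all transcripts were called so) and below 0 for 4 (17.6% of all transcripts). Past a difference of 1 on the log2 scale, 17 members were above 0 (17.7% of all transcripts). The 27 included 9 of the 14 eIF3 subunits and none of the 4 eIF4E binders. Eef1a2 led with a difference of 3.70 ± 0.41 on the log2 scale (adjusted p = 2.42e-06), before Eif5a with 1.83 ± 0.22 (adjusted p = 5.14e-06) and Eif4a1 with 1.79 ± 0.24 (adjusted p = 1.73e-05). Eif5a was thus called here although it was not called over its own input, while Eef2, lower than input by 0.89 with the tag and by 1.10 without it on the log2 scale, was not (0.21 ± 0.21, adjusted p = 0.459). Eif5b was furthest below 0 of the well-counted members (-1.84 ± 0.30, adjusted p = 0.000130). Without Rpl22-HA IP replicate 1, 14 members were above 0. Without Rpl22-HA input replicate 1, 1 member was below 0, and without Rpl22-HA input replicate 2, 2 were.

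The inputs of both genotypes gave nearly the same levels. In the Rpl22-HA inputs over the untagged inputs, 1 of 64 members was higher (0.0155% of all transcripts were) and 0 were lower in edgeR (0.00443% of all transcripts were), with 2 members at an unadjusted p under 0.05 and 1 called by DESeq2. The 1 was Eif2s3y. It was not called without either untagged input library.

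Ratios between paralogs within a library need no transcript length and no scaling, and are given as log2 of the ratio of CPM plus 0.5. Eef1a2 over Eef1a1 was -2.18 and -1.96 in the Rpl22-HA IPs, against -3.05 and -3.09 in the Rpl22-HA inputs. In the untagged retinas it was -6.31 and -5.76 in the IPs, against -3.72 and -3.01 in the inputs. In this experiment the ratio thus lay above that of the input with the tag and below it without the tag. The control IPs of the Brn3b experiment, which were also tagged, had -1.50, -5.73, -3.47 and -1.76. A tagged IP could therefore come near the untagged ones. Eif5a2 over Eif5a was -3.11 and -3.61 in the Rpl22-HA IPs, against -4.73 and -5.38 in their inputs, and it was -2.54 and -2.22 in the untagged IPs, against -4.89 and -4.62 in their inputs, so it was above the input in both. Eif4a2 over Eif4a1 was 2.46 and 2.65 in the Rpl22-HA IPs, against 1.82 and 2.04 in their inputs, and 2.77 and 2.85 in the untagged IPs, against 1.72 and 1.79 in their inputs. With 2 libraries against 2, an exact permutation test cannot go below p = 0.333, so these are values without a call. Reads of such near-identical copies, and of the processed copies of Eef1a1 elsewhere in the genome, may have been shared out between them in counting.

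**Figure D4:**
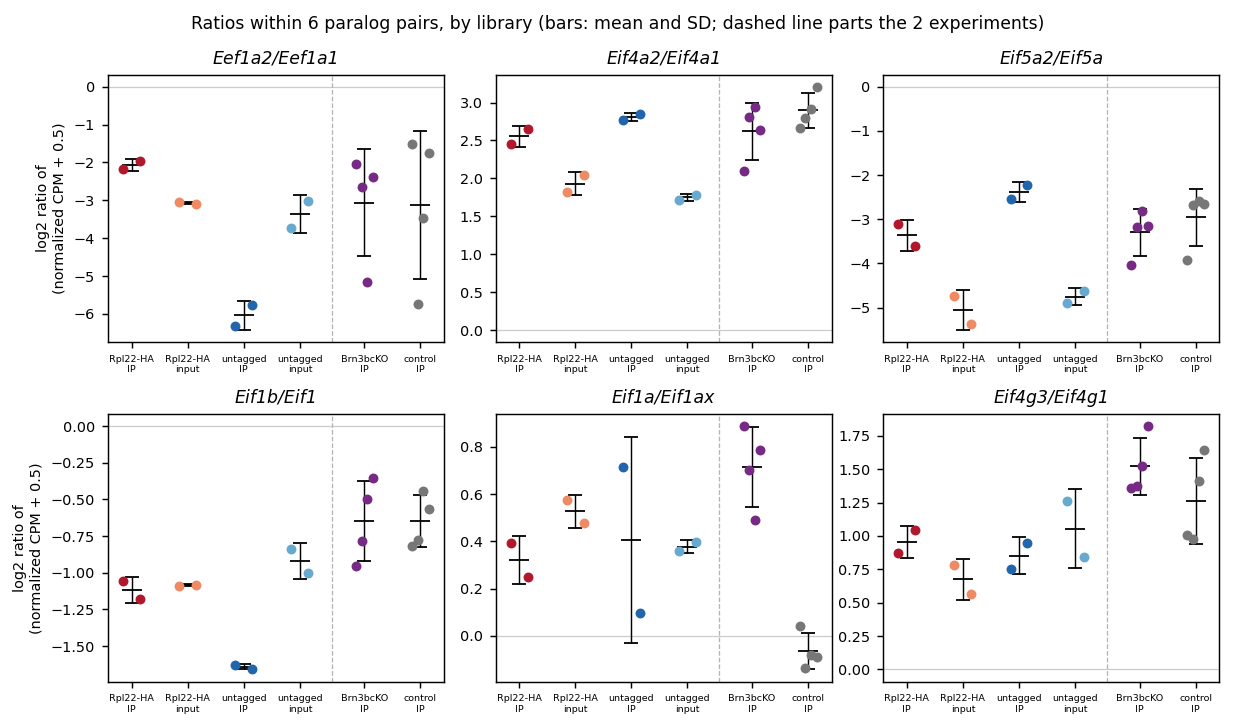
Log2 ratio of the CPM plus 0.5 of 6 paralog pairs (y axis) in each library by group (x axis), with bars for mean and SD; the dashed line parts the tagging experiment, with 2 libraries a group, from the Brn3b experiment, with 4. Eef1a2 over Eef1a1 is -6.31 and -5.76 in the untagged IPs, and Eif1a over Eif1ax separates Brn3bcKO IPs from control IPs.

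The genes that act on these factors were mixed. Of all transcripts, 23.0% were higher and 11.5% lower over the inputs, and 29.3% were higher and 30.9% lower over the untagged IPs. Of 13 genes of mTORC1 signalling and the eIF4E kinases, 7 were higher and 1 lower in the Rpl22-HA IPs over the Rpl22-HA inputs (median 0.57), but 3 were higher and 7 lower over the untagged IPs (median -0.61). Mtor, the kinase, had a log2 fold change of 0.91 ± 0.19 over the input and of -1.84 ± 0.17 over the untagged IPs, and Rheb, its small GTPase activator, had 0.70 ± 0.15 and 2.31 ± 0.16. Pdcd4, an inhibitor of eIF4A, rose by 1.28 ± 0.17 over the input, and Ddit4, a stress-induced inhibitor of mTORC1, fell by 1.50 ± 0.16 on the same scale. Of 6 poly(A)-binding and cap helper genes, 3 were higher and 1 lower over the input, and 4 were higher and 2 lower over the untagged IPs. Pabpc1, the main poly(A)-binding protein, was lower in both (-0.89 ± 0.18 and -0.62 ± 0.18). Of 8 release and recycling genes, 3 were higher and none lower over the input and 4 higher and none lower over the untagged IPs, with Mcts1, which works with DENR on recycled and reinitiating subunits, at 1.50 ± 0.20 and 2.14 ± 0.21.

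Downstream of eIF2, 9 genes of its phosphatase and of the integrated stress response gave 2 higher and 1 lower over the input (median -0.13) and 3 higher and 1 lower over the untagged IPs (median -0.07). The 2 higher ones were Asns, asparagine synthetase (1.45 ± 0.24, adjusted p = 0.000175), and Chac1, a glutathione-degrading enzyme (1.34 ± 0.36, adjusted p = 0.00717), whereas Atf4, the transcription factor of this response, was not called (0.32 ± 0.17, adjusted p = 0.165). Of 8 genes that make hypusine on eIF5A or diphthamide on eEF2, 2 were higher and 1 lower over the input and 3 were higher and none lower over the untagged IPs. Of 10 genes of the multisynthetase complex, 3 were higher and 2 lower over the input, with Eprs at -1.18 ± 0.16, and 3 were higher and 1 lower over the untagged IPs. The shares of all transcripts were 23.0% higher and 11.5% lower over the input, and 29.3% higher and 30.9% lower over the untagged IPs.

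Members with and without a pyrimidine run at the start were set side by side without a test. The 14 tested members with a pyrimidine run at the start had a median log2 fold change of 0.32 in the Rpl22-HA IPs over their inputs, with 4 higher and 1 lower, and the 36 without a run had a median of 0.30, with 11 higher and 1 lower. The 2 lower genes fell on both sides, Eif3f with a run and Eef2 without one within 5 bases of the RefSeq start. The window of Eef2 ends in such pyrimidines further downstream, so its place depends on the annotated start. Over the untagged IPs the medians were 0.90 with a run and 0.56 without one, and for the difference of the enrichments they were 0.49 and 0.36.

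The third question was whether loss of BRN3B changed the translation factors in Opn4-Cre cells. In the Brn3bcKO IPs over the control IPs, edgeR called 0 of 63 members higher (0.432% of all transcripts were) and 0 lower (0.735% of all transcripts were). DESeq2 also called 0, and 4 members had an unadjusted p under 0.05. The median log2 fold change was -0.02 over the members, of which 35 lay below 0 and 28 above, and 0.03 over all transcripts. The 95% confidence interval of 55 members lay within 1 on the log2 scale on either side of 0, with a median half-width of 0.40 over the members, so that a 2-fold change of most members lay outside it. The intervals of the other 8 reached further, namely those of Eef1a2, Eif2ak2, Eif2s3x, Eif2s3y, Eif3j1, Eif3j2, Eif4ebp2 and Eif5a2.

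The groups did not overlap for 2 of the 63 members (3.17%), against 9.60% of all transcripts tested. Eif2ak1 had 10.3, 14.8, 18.9 and 17.7 CPM in the Brn3bcKO IPs, against 21.7, 23.0, 20.8 and 26.0 CPM in the control IPs. All 4 Brn3bcKO libraries were below the lowest control, with a log2 fold change of -0.56 ± 0.20 (95% interval -0.98 to -0.14), but the unadjusted p of 0.0125 became 0.186 after adjustment in edgeR. Eif3c had 38.2, 39.0, 47.4 and 42.5 CPM in the Brn3bcKO IPs, against 35.3, 30.8, 33.8 and 35.4 CPM in the control IPs (0.30 ± 0.15, adjusted p = 0.360).

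The other members with an unadjusted p under 0.05 had higher means in the Brn3bcKO IPs, and none passed the adjustment. Eif4g3, a cap scaffold related to eIF4G1, had 83.3, 71.2, 96.3 and 115 CPM in the Brn3bcKO IPs, against 68.3, 51.8, 61.3 and 74.2 CPM in the control IPs (0.52 ± 0.18, adjusted p = 0.194). Eif3b had 90.0, 62.05, 75.6 and 74.6 CPM, against 73.1, 44.6, 45.4 and 50.5 CPM (0.50 ± 0.19, adjusted p = 0.230). For both genes the groups overlapped. Eif1a had 103, 119, 116 and 130 CPM, against 71.6, 91.1, 84.8 and 108 CPM (0.40 ± 0.17, adjusted p = 0.280), while its X-linked copy Eif1ax had 55.2, 73.3, 82.4 and 75.1 CPM, against 69.5, 100, 89.6 and 114 CPM (-0.39 ± 0.19, adjusted p = 0.352).

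Set as a ratio within each library, Eif1a over Eif1ax was 0.72 ± 0.17 in the Brn3bcKO IPs and -0.07 ± 0.08 in the control IPs (log2, SD, n = 4 each). The lowest Brn3bcKO library was at 0.49 and the highest control at 0.04, so the groups did not overlap, and the exact two-sided permutation p was 0.0286, the smallest that 4 against 4 can give. Over the 10 paralog pairs compared it became 0.286, and the other 9 pairs had an exact permutation p of 0.257 or more. The tagged IPs of the tagging experiment, from mice of the control genotype, had 0.39 and 0.25 for this ratio, between both groups of the Brn3b experiment. Eif1ax is X-linked, and the only female library among the Brn3bcKO IPs, replicate 4, had 0.79, and the only female control, replicate 3, had -0.08, each within the range of the males of its group.

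The members that had differed most between IP and input varied widely here. Eef1a2 had 83.7, 66.2, 9.98 and 68.5 CPM in the Brn3bcKO IPs, against 107, 7.40, 35.0 and 118 CPM in the control IPs, so that libraries of the same group differed by more than the groups did (-0.23 ± 0.65, adjusted p = 0.904). Eif5a2 had 12.3, 20.6, 27.7 and 17.3 CPM, against 14.1, 30.03, 35.0 and 36.3 CPM (-0.57 ± 0.29, adjusted p = 0.368), and Eif4a2 had 263, 332, 339 and 311 CPM, against 310, 354, 405 and 541 CPM (-0.37 ± 0.19, adjusted p = 0.381). Eef1a1 and Eef2 averaged 375 ± 31.3 and 453 ± 138 CPM in the Brn3bcKO IPs, and 380 ± 51.2 and 356 ± 90.2 CPM in the control IPs (SD, n = 4 each). Neither was called. Eif2s3y was 0 in the female libraries of both groups and 19.7 to 45.9 CPM in the male ones, as their sex labels give.

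Cell type markers differed between the same libraries. The summed level of 5 pan-RGC markers was 1606 to 2210 CPM in the Brn3bcKO IPs, against 2747 to 3844 CPM in the control IPs, that of 4 ipRGC markers was 90.0 to 141 CPM, against 138 to 178 CPM, and that of 5 cone markers was 6667 to 9440 CPM, against 3443 to 5892 CPM. The ranges of the ipRGC markers overlapped, and those of the pan-RGC and cone markers did not. Rod markers were, like cone markers, higher without overlap, at 7355 to 11828 CPM in the Brn3bcKO IPs, against 5084 to 7086 CPM in the control IPs. So were amacrine markers, at 152 to 178 CPM, against 113 to 136 CPM. Bipolar markers overlapped, at 155 to 243 CPM, against 130 to 174 CPM, and so did Müller glia markers, at 205 to 262 CPM, against 127 to 208 CPM. None of these markers was at 0 in any group. Their part in the values of the translation factors was not tested. Staining in the study gave fewer HA-labelled cells in the ganglion cell layer of Brn3bcKO retinas, and no significant difference in HA-labelled cones. Its methods adjusted fold changes of ipRGC-enriched genes for the ratio of these cells, which was not done here. The number of melanopsin-labelled cells did not differ, and the study gives the HA count less weight. When libraries were instead scaled to 3109 transcripts enriched by the tag, the median of all transcripts moved by 0.39, 60 of 63 members lay above 0 (median 0.38) and 9 members were called higher, beside 11.2% of all transcripts. The 9 were Eef2, Eef2kmt, Eif1a, Eif3b, Eif3c, Eif3d, Eif4a3, Eif4g1 and Eif4g3. Under the selection of transcripts that the study's methods name, Eif3b alone was called.

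None of the pathway genes passed the test either, with 0 of 13 genes of mTORC1 signalling and the eIF4E kinases, 0 of 6 cap helpers, 0 of 8 release and recycling genes, 0 of 9 stress response genes, 0 of 8 modification genes and 0 of 10 multisynthetase genes called in edgeR. Of all transcripts, 0.432% were called higher and 0.735% lower. Asns (-0.53 ± 0.18, adjusted p = 0.171) and Ppp1r15a, the inducible subunit of the eIF2 phosphatase (0.64 ± 0.23, adjusted p = 0.200), came nearest among the stress response genes named here.

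**Figure D5:**
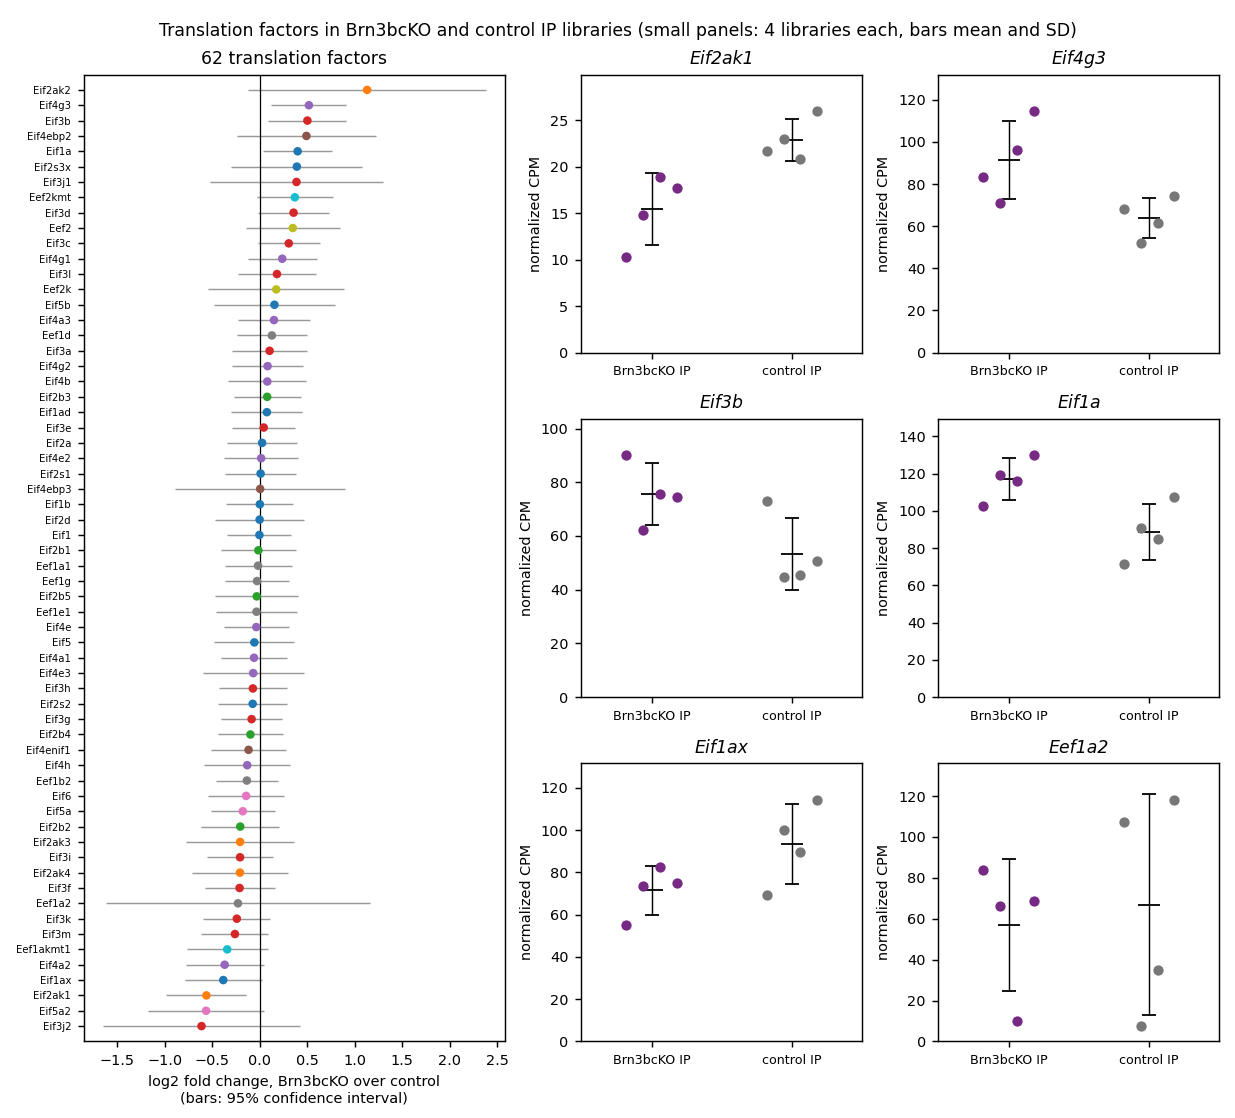
Left, log2 fold change of 62 members in Brn3bcKO IPs over control IPs (x axis, bars 95% confidence interval, members by rank on the y axis, Eif2s3y left out); right, normalized CPM of 6 members in the 4 Brn3bcKO and 4 control IPs, with mean and SD. No member passed an adjusted p of 0.05, Eif2ak1 is the member whose Brn3bcKO libraries all lie below the controls, and Eef1a2 spreads from 7.40 to 118 CPM among the controls.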

How the data were processed

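The authors deposited raw counts per Ensembl transcript, from 37 bp paired-end Smart-seq3 libraries processed with the Smart-seq3 pipeline on mm10. The tables hold a count for each library, and no other unit was used. Counts were filtered (filterByExpr, minimum count 10), scaled by TMM and fitted with the quasi-likelihood model of edgeR 4.0.16 (limma 3.58.1, R 4.3.3), separately for the 8 libraries of the tagging experiment and the 8 of the Brn3b experiment, with Benjamini-Hochberg adjustment over 45189 and 43975 transcripts. Counts of transcripts were never summed, and 17 transcripts with repeated entries were counted once. Values in every library were given, by rule, for the called members that changed most in 3 comparisons, up to 4 in each direction. These members needed a mean count of at least 50 and no overlap of the groups. Paralog pairs, eIF2, its kinases, eIF2B, the eIF4E-binding proteins, Eef2 and Eef2k were set to be named whatever their values. That rule was not kept in full. Eif2s2 was left out, Eif2s1 and the eIF2B subunits have no values per library, and ratios are given for only some pairs. Other members and pathway genes that are named were picked with their values known. The members and gene lists were chosen with earlier results of these data known. Positions, lengths and start windows came from GENCODE M21 and RefSeq (GRCm38.p6). Because the methods take the input from the same lysate as the IP, IP and input of the same number are paired. The main fits compared groups without this pairing, and a block for the lysate was an alternative. Deviations of same-numbered IP and input libraries correlated at 0.026 with the tag and 0.077 without it. Same-numbered IPs with and without the tag, from different lysates, correlated at 0.096. With 2 libraries a group the deviations are equal and opposite, so these correlations say little about the pairing. Alternatives were RLE and total-count scaling, other filters, DESeq2 1.42.0, the pair-wise exact test, the methods' selection of transcripts, a replicate block and each library left out. The scripts were tested on simulated data. Ratio tests within the Brn3b experiment were exact permutation tests, two-sided, and count intervals cover counting error only.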

Additional observations from a re-analysis of the deposited data

Results flagged for a closer look

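For 31 members the enrichment over input differed between Rpl22-HA and untagged retinas, as tested by the interaction contrast in edgeR. The differences, tagged minus untagged on the log2 scale, were largest for Eef1a2 (3.70) and, on the elongation side, included Eef1e1 (1.78), Eef1akmt1 (1.40), Eif5a (1.83) and Eif5a2 (1.26). In the cap complex they were 1.79 for Eif4a1, 1.31 for Eif4a2, 1.31 for Eif4h, 0.95 for Eif4a3 and 0.85 for Eif4e. In eIF3 they were 1.70 for Eif3i, 1.36 for Eif3b, 1.30 for Eif3c, 1.02 for Eif3g, 1.00 for Eif3k, 0.99 for Eif3l, 0.89 for Eif3f, 0.80 for Eif3m and 0.73 for Eif3h. Around eIF2 and start codon choice they were 1.10 for Eif2s1, 1.07 for Eif2b5, 0.94 for Eif2b2, 1.01 for Eif2ak1, 1.04 for Eif1ax, 0.89 for Eif1ad, 0.83 for Eif1a and 0.80 for Eif1b. Below 0 were Eif4g1 (-0.83), Eif2ak4 (-1.42), Eif5b (-1.84) and the sparsely counted Eif2ak2 (-3.12).

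In 5 of 126 groups of 4 libraries in the Brn3b experiment, 1 library stood apart from the others of its group, where chance gives about 1 group in 20. Brn3bcKO replicate 1 was the highest for Eif1 (224.6 CPM, the others 185 to 189 CPM) and for Eif4a3 (60.8 CPM, the others 47.7 to 49.6 CPM), and the lowest for Eif2s1 (34.2 CPM, the others 37.8 to 38.3 CPM). Control replicate 4 was the highest for Eif4a3 (61.0 CPM, the others 40.5 to 43.2 CPM), and control replicate 1 for Eif6 (77.3 CPM, the others 55.0 to 57.7 CPM).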

How the results depend on the processing

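The balance of directions over the inputs turned under the methods' selection of transcripts. In the Rpl22-HA IPs over their inputs, 10 members were higher with DESeq2 and 6 under the methods' selection, and 9 were lower with the exact test and 15 under that selection, while an absolute log2 fold change over 1 left 4 higher and 0 lower. Leaving out a library gave 5 to 9 higher and 1 to 2 lower. Over the untagged IPs a log2 fold change over 1 left 20 higher and 3 lower, and left-out libraries gave 27 to 32 higher and 8 to 9 lower. In the untagged IPs over their inputs, 11 were lower past that size, and left-out libraries gave 7 to 12 higher and 14 to 25 lower. Between the inputs they gave 0 to 1 higher. The difference of the enrichments was above 0 for 17 members past that size and for 14 to 27 with a library left out, and below 0 for 1 to 6. In the Brn3b experiment 1 member was higher under the methods' selection and 9 when scaled to enriched transcripts. The methods' selection with the scaling of all transcripts gave 20 higher and 2 lower over the inputs, and 0 called in the Brn3b experiment. The cause of the other changes was not tested. The replicate block for the lysate gave 23 higher and 2 lower over the inputs with the tag, 11 and 23 without it, and 27 and 5 for their difference, and the number as a block gave 34 and 7 over the untagged IPs, 1 and 0 between inputs, and 0 and 0 in the Brn3b experiment, where same-numbered libraries share only a number. RLE scaling moved the median of all transcripts by -0.11 over the inputs. Members under a few CPM, such as Eif4ebp1, Eif4ebp2 and Eif4ebp3, are limited by counts.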
